A study of Rattus norvegicus with 9 samples.

Results

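The cadherin and protocadherin genes of cultured rat cortical neurons were followed through the withdrawal of oxygen and glucose (OGD), which models ischaemia in a dish, and through added Wnt proteins. Members were all rows of the deposited gene tables whose symbol starts with Cdh and a digit or with Pcdh, which gave 69 of 22050 genes. Of these, 34 were single genes: 23 named Cdh and 11 single protocadherins. The other 35 were protocadherins of the alpha, beta and gamma gene clusters, which are described apart because genes of the alpha cluster share constant exons, as do those of the gamma cluster. The 9 libraries came from primary cortical neurons of Sprague Dawley rat embryos of day 19, in 3 groups of 3. Control cultures were untreated. The OGD group was held at 1% oxygen with no glucose for 4.5 h and then returned to normoxia. The last group received 100 ng/ml Wnt3a, a ligand that stabilises beta-catenin, and 50 ng/ml Rspondin 1, which strengthens Wnt responses, for 24 h under OGD and normoxia. The oxygen level and hours of deprivation are stated for OGD alone, no harvest time is given in the sources used here, and neither protein was studied here in cultures spared from OGD. The tables name the OGD group vehicle, but its labels name no vehicle. Nothing in the labels says that the 3 samples of a group came from separate cultures or animals, so the p-values measure only how these samples spread, possibly for technical reasons.

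Cadherins are calcium-dependent adhesion proteins that hold cells together through their extracellular repeats. Classical cadherins of type I and type II bind beta-catenin and p120 catenin on the inside of the membrane, and through alpha-catenin they reach the actin cytoskeleton. In the cortex they sort neurons into layers and circuits and hold synapses together, and the pool of beta-catenin they bind is separate from the pool that carries Wnt signals. Delta protocadherins act in axon growth and synapse formation. Clustered protocadherins give each neuron its own combination of surface isoforms, chosen by activation of single promoters, and neurites of the same cell recognise each other through them.

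Library totals ran from 14285914 to 25048521 counts. The members together took 0.261% to 0.263% of the counts in control, 0.191% to 0.2% after OGD and 0.183% to 0.198% with Wnt3a and Rspondin 1. The cells carried the markers of their label, and those of other cells too. Rises and falls of markers are calls at an adjusted p under 0.05 in the edgeR test described below. By that rule 36.3% of all tested genes rose after OGD and 36.8% fell. All 12 neuron markers of the list fell after OGD, with a median log2 change of -2.61, and their summed level went from 3392 to 3607 FPKM (fragments scaled by gene length and library depth) in the control libraries to 604.6 to 819.3. Of 10 astrocyte markers 9 rose (summed 2469 to 2637 FPKM in control, 6661 to 7265 after OGD), as did all 7 tested of 9 matched microglia markers (3.53 to 5.74 FPKM in control, 22.16 to 24.22 after OGD). Of the other lists, 5 of 7 tested progenitor markers rose and 1 fell (1045 to 1178 FPKM, then 4007 to 4575), 6 of 9 of the oligodendrocyte lineage rose and 3 fell (428.2 to 512.7, then 1095 to 1106), 3 of 7 tested mural and meningeal markers rose and 3 fell (101.8 to 125.9, then 676 to 891.3), and 2 of 3 tested endothelial markers rose and 1 fell (0.94 to 1.12, then 1.68 to 2.2), with Cldn5 at 0 in every library. The mural and meningeal counts are near the shares over all genes, with a median log2 change of 0.08, although their summed level rose. These are bulk libraries, in which fewer cells of a type and less RNA per cell cannot be told apart. The part of cell composition in the changes below was not tested. OGD replicate 1 differed most from the others of its group, with a chi-square per degree of freedom of 22.3 and 28.4 against 3.6 to 11.3 for all other replicate pairs, and results are given without it where that mattered.

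Levels were compared first, per gene length. Among single genes Cdh2, which encodes N-cadherin, the main adhesion protein of neural junctions and synapses, had the highest mean level. It was measured at 54.05, 54.89 and 55.87 FPKM in the control libraries, at 64.76, 70.34 and 69.50 after OGD, and at 67.67, 67.77 and 68.51 with Wnt3a and Rspondin 1. Cdh13, or T-cadherin, which is held by a lipid anchor and has no cytoplasmic tail, was the next, at 72.72, 69.02 and 66.91 FPKM in control and 48.07, 45.06 and 45.20 after OGD. The order of these 2 genes was thus reversed between control and OGD, with no overlap between the libraries of the genes in either group. Pcdh10 came next, at 35.23, 37.54 and 34.26 FPKM in control and 42.87, 39.08 and 37.95 after OGD. Cdh24, Cdh4 and Cdh20 followed. Over all 9 libraries the ranges of Cdh24 (15.08 to 24.35 FPKM) and Cdh4 (13.12 to 24.15 FPKM) overlapped, but not within any group. Cdh4 lay above Cdh24 in control, at 18.31 to 24.15 against 15.08 to 17.18 FPKM. It lay below Cdh24 after OGD (14.58 to 18.55 against 20.07 to 24.35) and with both proteins (13.12 to 17.47 against 22.49 to 23.60). At the other end, 9 members had too few counts to be tested. Cdh16, a kidney cadherin, and Pcdhb1 had 0 counts in every library, which allows up to 3 counts, or 0.12 to 0.21 CPM (counts scaled by the library total), by counting error alone. Cdh1 (E-cadherin) had 1 to 5 counts, Cdh5 (the endothelial VE-cadherin) 0 to 4, Cdh26 0 to 3 and Cdh17 0 to 11, and Cdh3 (P-cadherin) had 1 to 17. Cdh19, a cadherin of the neural crest and its glia, had 0, 0 and 2 counts in control and 4, 6 and 13 after OGD. Pcdh12, known from endothelium, had 7, 13 and 17 counts in control, 1, 1 and 0 after OGD and 2, 0 and 2 with the proteins.

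**Figure D1:**
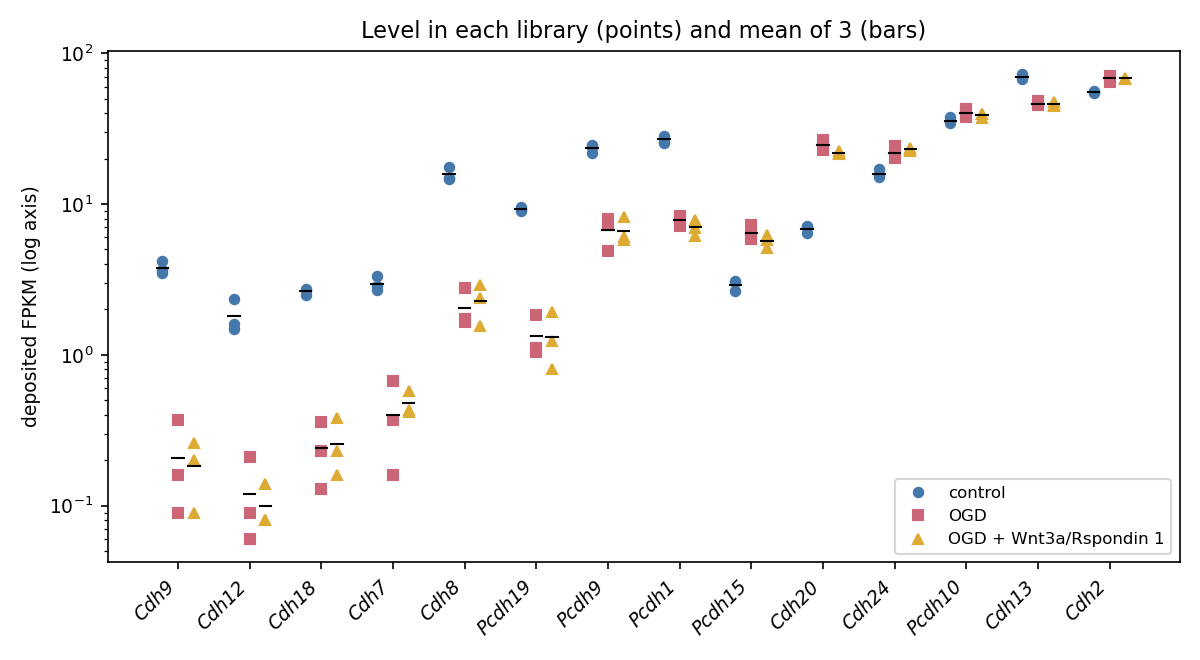
Deposited FPKM (log axis) of 14 single members, by gene, with 1 point per library and a bar at the mean of the 3 libraries of a group. Cdh9, Cdh12, Cdh18, Cdh7 and Cdh8 lie far lower in all 6 deprived libraries than in the 3 controls, Cdh20 and Pcdh15 lie higher, and Cdh2 stays between 54.05 and 70.34 FPKM.

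Single cadherins and protocadherins mostly fell after OGD. In the quasi-likelihood test of edgeR, with p-values adjusted over all 13693 tested genes by Benjamini-Hochberg, 19 of the 26 tested single members were lower than control at an adjusted p under 0.05, 5 were higher and 2 were not called. Over all tested genes 36.8% were called lower and 36.3% higher, or 73.1% in either direction. The median log2 change was -0.84 over the 26 members and 0.02 over all tested genes. A change of -1 or less was found in 12 of the 26 members, against 19.1% of all genes, and a change of 1 or more in 2 members, against 14.4%. Libraries of the OGD and control groups did not overlap for 5 higher and 18 lower members of the 26, where 37% and 38.1% of all genes had none. Without OGD replicate 1, 4 single members were called higher and 20 lower; the call of Cdh23 was lost, and the added lower call was Pcdh12, which is not among the 26.

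**Figure D2:**
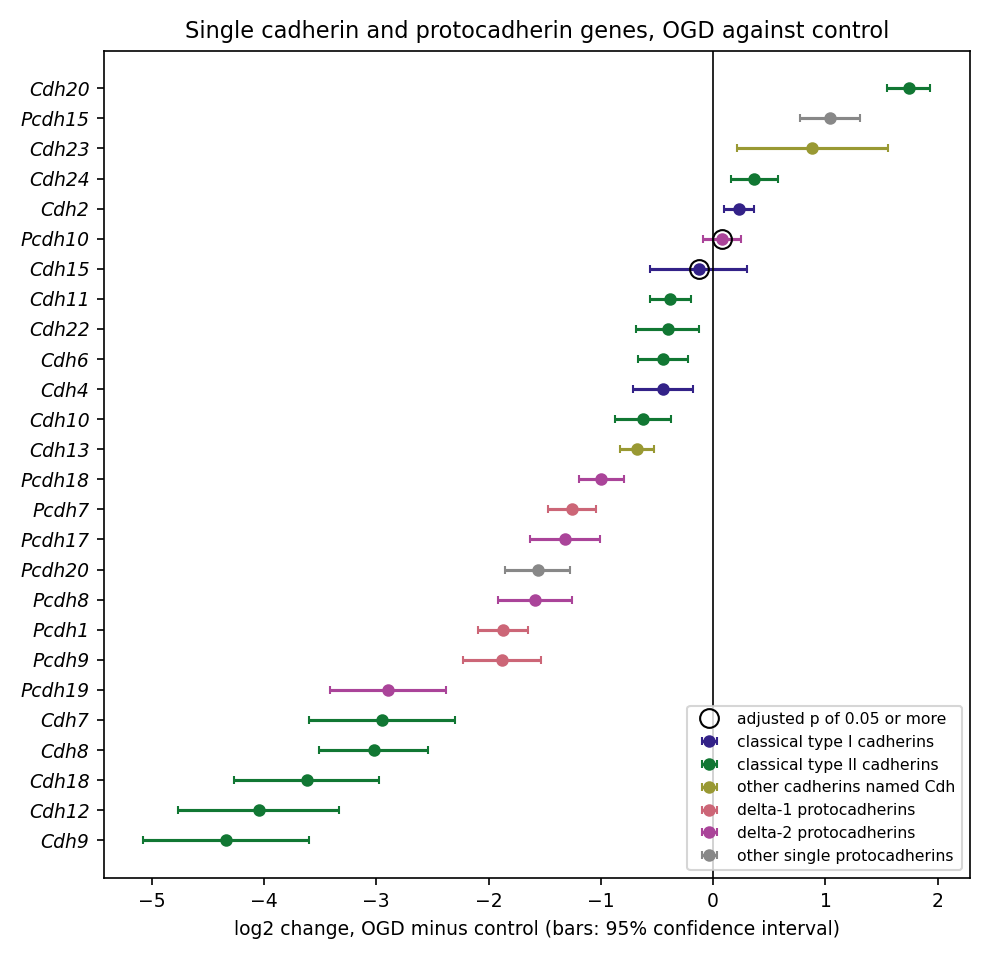
Log2 change from control to OGD for the 26 tested single members, sorted, with 95% confidence intervals from the edgeR fit and a colour for each family. The type II cadherins spread from -4.34 (Cdh9) to 1.74 (Cdh20), while the 3 type I genes stay between -0.45 and 0.23; circles mark the 2 genes that were not called, Pcdh10 and Cdh15.

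Among type I cadherins, which make strong classical junctions, the changes were small and went both ways. The level of Cdh2 rose, with a log2 change of 0.23 ± 0.06 (SE; 95% interval 0.09 to 0.36; adjusted p = 0.005083 by edgeR), or 1.17-fold, and all 3 OGD libraries lay above all 3 controls. Cdh4, the retinal R-cadherin, went from 22.67, 24.15 and 18.31 FPKM to 18.55, 14.58 and 16.16, and its normalised counts fell by 0.45 ± 0.12 on the log2 scale (adjusted p = 0.005528, edgeR). Cdh15, a muscle cadherin, was low (1.21, 1.41 and 1.34 FPKM in control, 1.37, 1.15 and 1.33 after OGD) and was not called, with a 95% interval of -0.56 to 0.30 for its log2 change.

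The type II cadherins held both the largest fall and the largest rise of the tested single genes. Their median log2 change of -0.63 was smaller in size than that of the delta-1 (-1.87) and delta-2 (-1.32) protocadherins. All 11 tested type II members changed: 9 fell and 2 rose, beside 36.8% and 36.3% of all genes. Cdh9, an adhesion protein of specific hippocampal synapses, was measured at 3.47, 3.65 and 4.17 FPKM in control and at 0.16, 0.09 and 0.37 after OGD, a fall of 4.34 ± 0.34 on the log2 scale, or 20.2-fold (adjusted p = 1.053e-07, edgeR). Cdh12, or brain cadherin, was at 1.61, 1.48 and 2.36 FPKM in control and at 0.09, 0.06 and 0.21 after OGD, or 16.5-fold lower (log2 change -4.05 ± 0.33, adjusted p = 1.587e-07, edgeR). For both genes the highest OGD library lay far under the lowest control.

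Cdh18 went from 2.74, 2.69 and 2.51 FPKM to 0.23, 0.13 and 0.36 (log2 change -3.62 ± 0.30). Cdh8, a cadherin of cortical and striatal circuits and the best expressed of those with a large fall, went from 14.69, 14.92 and 17.59 FPKM to 1.66, 1.74 and 2.78 (-3.02 ± 0.22). Cdh7 went from 2.85, 2.69 and 3.32 FPKM to 0.16, 0.37 and 0.67 (-2.95 ± 0.30). In each of the 3 the groups were apart by several times their range, and each was called by edgeR with an adjusted p of at most 1.861e-06. Cdh10, Cdh6, Cdh22 and Cdh11 fell less, by log2 changes of -0.63, -0.45, -0.41 and -0.38. Cdh10 went from 13.18, 14.47 and 17.19 FPKM to 8.72, 11.15 and 10.88, Cdh6 from 12.91, 14.26 and 12.65 to 9.65, 10.32 and 10.99, and Cdh11 from 19.59, 20.05 and 22.03 to 14.53, 17.92 and 17.80, each without overlap. Among the 4, Cdh22 was the only called one among the 26 single genes whose OGD and control libraries overlapped (11.56 to 14.18 FPKM in control, 9.37 to 12.40 after OGD), and its call was lost without control replicate 1, OGD replicate 2 or OGD replicate 3 (adjusted p 0.0503 to 0.0588, edgeR).

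Cdh20 made the largest rise of the 60 tested members; Cdh19, described above by its few counts, was called only when no filter on low counts was used. Cdh20 was measured at 7.16, 6.4 and 7.07 FPKM in control and at 26.59, 22.89 and 23.90 after OGD, 3.34-fold higher (log2 change 1.74 ± 0.09, adjusted p = 2.441e-09, edgeR). Cdh24 rose from 17.18, 15.08 and 15.47 FPKM to 24.35, 20.07 and 20.91 (log2 change 0.37 ± 0.10, adjusted p = 0.004172, edgeR). In the RefSeq gene order of rat assembly GRCr8, Cdh10, Cdh12 and Cdh18 are neighbours with no protein-coding gene between them. Cdh9 is separated from Cdh10, and Cdh6 from Cdh9, by 2 protein-coding genes each. These 5 neighbours fell by very different amounts, from -0.45 for Cdh6 and -0.63 for Cdh10 to -4.34 for Cdh9. Cdh20 and Cdh7, on the same chromosome but with 25 protein-coding genes between them, moved in opposite directions.

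The promoters of 3 of the strongly lowered type II genes and of Cdh20 are shown as examples of large changes in opposite directions. Cdh9, with the largest fall, has no window in the RefSeq table, and that of Cdh7 is given by its CG count only. Each sequence is the 250 bases before the RefSeq gene start on the plus strand of GRCr8, 5′ to 3′, with every CG dinucleotide in capitals. They lie at chr19:5500216-5500465 for Cdh8, chr2:72886282-72886531 for Cdh12, chr2:75075345-75075594 for Cdh18 and chr13:21515017-21515266 for Cdh20.
Cdh8: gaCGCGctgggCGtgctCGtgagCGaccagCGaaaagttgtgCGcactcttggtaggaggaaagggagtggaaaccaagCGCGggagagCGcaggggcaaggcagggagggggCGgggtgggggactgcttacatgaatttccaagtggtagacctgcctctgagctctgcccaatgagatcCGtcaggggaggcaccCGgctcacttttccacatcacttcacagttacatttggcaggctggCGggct
Cdh12: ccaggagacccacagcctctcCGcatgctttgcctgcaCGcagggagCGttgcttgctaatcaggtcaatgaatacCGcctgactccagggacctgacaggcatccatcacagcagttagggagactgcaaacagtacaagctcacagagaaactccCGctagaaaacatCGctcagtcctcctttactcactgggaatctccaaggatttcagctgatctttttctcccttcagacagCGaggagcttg
Cdh18: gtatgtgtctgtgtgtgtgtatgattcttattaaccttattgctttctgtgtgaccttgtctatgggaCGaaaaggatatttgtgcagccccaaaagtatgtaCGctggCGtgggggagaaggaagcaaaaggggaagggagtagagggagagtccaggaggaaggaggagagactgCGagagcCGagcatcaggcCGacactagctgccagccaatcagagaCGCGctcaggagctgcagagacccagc
Cdh20: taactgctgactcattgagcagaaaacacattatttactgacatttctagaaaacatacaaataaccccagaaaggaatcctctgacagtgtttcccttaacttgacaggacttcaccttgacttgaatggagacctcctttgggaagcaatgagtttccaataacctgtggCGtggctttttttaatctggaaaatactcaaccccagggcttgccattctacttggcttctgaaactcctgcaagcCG
The printed stretches hold 14, 7, 8 and 2 CG dinucleotides in that order. Over the full windows of 300 bases in the table, which run on to 50 bases after the start, Cdh8 had 18, Cdh12 8, Cdh18 11 and Cdh20 2, beside a median of 7 over all 33469 promoters. Of the other raised genes with a window, Pcdh15 held 7 CG dinucleotides, Cdh24 27 and Cdh23 43. The lowered Cdh7 held 4, so low counts were met among raised and lowered genes. The median was 17 over the 4 raised members with a window and 10.5 over the 14 lowered ones. A window was found for 23 single members.

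The remaining genes named Cdh were Cdh13 and Cdh23. Cdh13 fell by 0.68 ± 0.07 on the log2 scale, or 1.60-fold (adjusted p = 1.678e-06, edgeR). Cdh23, which forms the tip link of inner ear hair cells together with Pcdh15, was near the limit of detection, at 0.13, 0.14 and 0.13 FPKM in control and 0.38, 0.18 and 0.24 after OGD. Its log2 change was 0.88 ± 0.31 (adjusted p = 0.02095, edgeR) and 0.55 without OGD replicate 1, the highest library, where it was not called (adjusted p = 0.1191, edgeR). The call was also lost without control replicate 1 or 3. Pcdh15 was far better expressed and rose more firmly, from 3.07, 3.04 and 2.67 FPKM to 7.28, 5.88 and 6.00, or 2.06-fold (log2 change 1.04 ± 0.12, adjusted p = 5.213e-06, edgeR).

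The delta protocadherins fell as a group with 1 exception, where 36.8% of all genes were called lower. All 3 delta-1 genes were lower: Pcdh9 went from 21.63, 24.03 and 24.53 FPKM to 4.91, 7.26 and 7.98 (log2 change -1.88 ± 0.16). Pcdh1 went from 28.30, 26.92 and 25.29 FPKM to 8.30, 7.18 and 7.88 (-1.87 ± 0.10). Pcdh7 went from 23.45, 25.42 and 23.85 FPKM to 10.69, 9.43 and 12.25 (-1.26 ± 0.10). The 3 genes started at similar levels, and none had an overlap between its groups.

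Of the 5 delta-2 genes, 4 fell, beside the same 36.8% of all genes. Pcdh19, the X-linked gene of a female-limited epilepsy, made the largest fall of any single protocadherin, from 8.96, 9.58 and 9.20 FPKM to 1.05, 1.11 and 1.83, or 7.44-fold (log2 change -2.90 ± 0.24, adjusted p = 2.455e-07, edgeR). Pcdh8, or arcadlin, which is induced by neuronal activity and takes N-cadherin off the synaptic surface, went from 32.58, 29.42 and 26.48 FPKM to 11.45, 7.95 and 12.04 (-1.59 ± 0.15). Pcdh17, which acts at corticostriatal synapses, went from 10.37, 11.69 and 10.81 FPKM to 5.29, 3.53 and 5.27 (-1.32 ± 0.14). Pcdh18 went from 4.57, 5.12 and 5.17 FPKM to 2.66, 2.66 and 2.59 (-0.99 ± 0.09). Pcdh10, which recruits actin regulators through its tail, was the exception: its log2 change was 0.08 ± 0.08 with a 95% interval of -0.09 to 0.25, and its libraries overlapped. Outside the delta classes, Pcdh20 fell from 3.80, 3.49 and 3.78 FPKM to 1.14, 1.28 and 1.57 (log2 change -1.56 ± 0.13, adjusted p = 2.516e-07, edgeR). In gene order Pcdh8, Pcdh17, Pcdh20 and Pcdh9 follow each other with 1 to 3 protein-coding genes between them, and all 4 fell, with log2 changes from -1.88 to -1.32.

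The clustered protocadherins parted by cluster. Of the 34 tested rows, 21 were lower after OGD, 2 were higher and 11 were not called, with a median log2 change of -0.46 (edgeR, adjusted p under 0.05; background as above, 36.8% lower and 36.3% higher). Reads in shared exons may be credited to any row of a cluster, so the counts of a cluster were also added and tested as 1 row in the whole table. The alpha sum was 361.1, 371.6 and 386.7 CPM in control and 52.57, 63.29 and 81.43 after OGD, and fell by 2.59 ± 0.15 on the log2 scale (adjusted p = 7.154e-09, edgeR). The beta sum was 105.7, 108.9 and 111.9 CPM in control and 77.07, 83.06 and 90.89 after OGD, a fall of 0.47 ± 0.07 (adjusted p = 7.42e-05, edgeR). The gamma sum was 537.9, 528.5 and 512.8 CPM in control and 676.8, 641.3 and 647.3 after OGD, and rose by 0.23 ± 0.07 (adjusted p = 0.01204, edgeR). No cluster had an overlap between its control and OGD libraries.

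**Figure D3:**
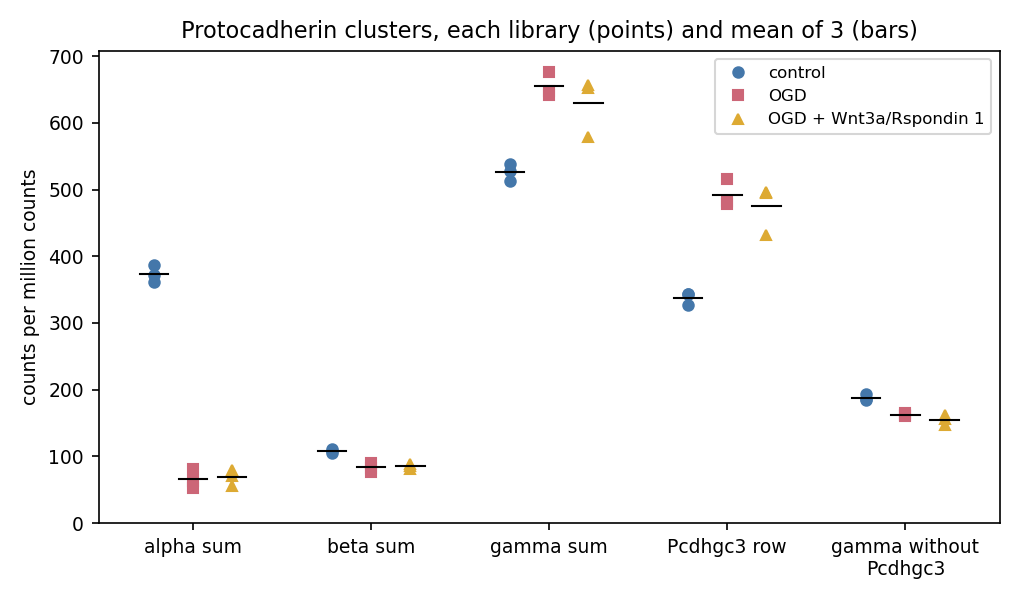
Summed counts, scaled to CPM, of each protocadherin cluster, and of the gamma cluster split into the Pcdhgc3 row and the other 15 rows, with 1 point per library and a bar at the mean of 3. The alpha sum drops from 361.1 or more to 81.43 or less, the Pcdhgc3 row goes up, and the other gamma rows together go down.

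The rise of the gamma sum rested on a single row. Pcdhgc3, a C-type gamma isoform that is not subject to random promoter choice, was at 122.56, 122.31 and 116.77 FPKM in control and at 184.01, 170.60 and 171.99 after OGD, the highest level of any member (log2 change 0.46 ± 0.08, adjusted p = 0.0001257, edgeR). It held 63.9% to 64.9% of the gamma counts in the control libraries (exact 95% intervals within 63.0% to 65.9%, covering counting error only) and 74.5% to 76.3% after OGD. Without that row, a division chosen after seeing the data, the gamma sum was 194.2, 185.5 and 185.3 CPM in control and 160.7, 162.8 and 164.9 after OGD, and it fell by 0.30 ± 0.07 on the log2 scale (adjusted p = 0.001359, edgeR). The gene length that counts and FPKM imply was 2381 to 2430 bases for the other 15 gamma rows and 2805 bases for Pcdhgc3. Whether its row takes in reads of the shared gamma exons, and so of all gamma transcripts, cannot be told apart from its own level in these tables. The count of the Pcdhgc3 row over the alpha sum was 0.847 to 0.952 in control and 5.92 to 9.82 after OGD.

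Within the gamma cluster the A and B types differed in their counts of calls, to be read beside 36.8% of all genes lower and 36.3% higher. Of the 10 gamma A rows, 9 fell and none rose, with a median log2 change of -0.77, and Pcdhga9 was not called. Pcdhga5 made the largest fall, from 2.69, 2.54 and 2.54 FPKM to 0.87, 1.04 and 1.20 (log2 change -1.40 ± 0.34, adjusted p = 0.002223, edgeR). Pcdhga8 (-1.11 ± 0.15), Pcdhga10 (-1.10 ± 0.14), Pcdhga3 (-0.99 ± 0.13) and Pcdhga4 (-0.92 ± 0.18) followed in size, and Pcdhga6, with the smallest called fall, by 0.27 ± 0.10. Of the 5 gamma B rows 1 fell (Pcdhgb4), 1 rose and 3 were not called. The raised row was Pcdhgb8, at 6.5, 7.12 and 6.07 FPKM in control and 9.24, 11.33 and 9.85 after OGD (log2 change 0.55 ± 0.11, adjusted p = 0.0004304, edgeR). Pcdhgb7, the best covered of the B rows, was at 11.09, 11.10 and 11.16 FPKM in control and 11.70, 10.93 and 12.80 after OGD, with a 95% interval of -0.20 to 0.20 for its log2 change. The difference between the A and B rows was not tested. The calls of Pcdhga6, Pcdhga11 and Pcdhgb4 were lost when libraries were scaled by their totals alone. That of Pcdhga6 was also lost with 2 groups only and without control replicate 1 or 3 or OGD replicate 1 or 3. Those of Pcdhga11 and Pcdhgb4 were also lost without control replicate 1 or 2 or OGD replicate 2 or 3.

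The beta genes, which have no shared exons, gave 8 rows lower, none higher and 7 not called among 15 tested. Over all genes 36.8% were called lower and 36.3% higher, or 73.1% in either direction. Pcdhb8 fell most, from 3.13, 2.85 and 2.41 FPKM to 1.11, 1.32 and 1.41 (log2 change -1.20 ± 0.19, adjusted p = 7.385e-05, edgeR). Log2 changes from -0.95 to -0.60 were called for Pcdhb12, Pcdhb2, Pcdhb3, Pcdhb10, Pcdhb11 and Pcdhb5. In gene order Pcdhb2 (log2 change -0.94 ± 0.20) is followed by Pcdhb3 (-0.87 ± 0.16) and then by Pcdhb4, which was at 1.76, 1.24 and 1.93 FPKM in control and 1.85, 1.66 and 2.02 after OGD and was not called (0.06 ± 0.18). Pcdhb22, the beta row with the most counts, went from 5.17, 5.64 and 6.09 FPKM to 4.03, 4.18 and 4.70 (-0.47 ± 0.12). Pcdhb9, the next, was at 2.79, 2.87 and 3.08 FPKM in control and 2.71, 3.11 and 3.12 after OGD and was not called. All 3 alpha rows fell alike. Pcdha13, with 85% to 87.9% of the alpha counts in every library, went from 58.62, 60.90 and 63.69 FPKM to 8.41, 10.44 and 13.46 (-2.60 ± 0.15), and its implied length of 5318 bases, against 2369 and 2386 for the other alpha rows, means that reads of shared alpha exons in this row cannot be told apart from its own. Of the 2 rows that both carry the symbol Pcdha4, ENSRNOG00000050378 went from 11.08, 10.76 and 10.75 FPKM to 1.74, 1.35 and 2.04 (-2.77 ± 0.14) and ENSRNOG00000047174 fell by 2.35 ± 0.17. The alpha sum without the Pcdha13 row still fell by 2.56 ± 0.13.

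**Figure D4:**
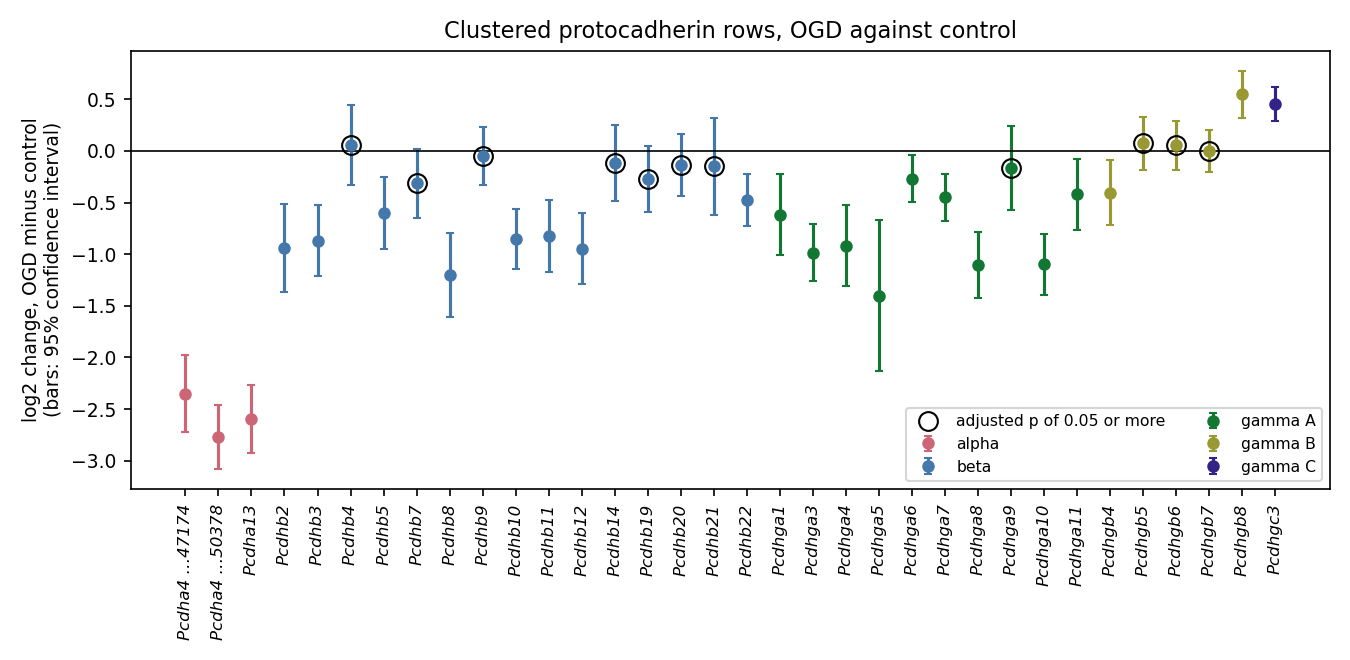
Log2 change from control to OGD for the 34 tested clustered protocadherin rows, by cluster and number, with 95% confidence intervals from the edgeR fit. The 3 alpha rows lie between -2.77 and -2.35, the gamma A rows lie below 0, and Pcdhgb8 and Pcdhgc3 are the 2 rows called higher; circles mark the 11 rows not called.

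Promoters of the clustered genes share a conserved element with the core CGCT, and CTCF, which binds there and joins promoters to enhancers, has the core CCCTC. Among the 26 clustered windows in the RefSeq table, CGCT or its reverse complement was found in 92.3% (14 of 14 beta and 9 of 11 gamma windows), beside 60.9% of all 33469 promoters. CCCTC, on both strands, was found in 30.8% of the clustered windows and in 64.7% of all. Of the 23 windows of single members, 82.6% held CGCT and 73.9% held CCCTC. Words this short are met often, and a match is a description, not a binding site. Clustered windows had a median GC content of 41%, single members 56.3% and all promoters 51.7%.

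Wnt3a and Rspondin 1 gave no called change in any tested member. Against OGD alone, 0 of 60 tested members passed an adjusted p of 0.05 in edgeR, where 27 of 13693 genes (0.197%) did, and DESeq2 also called 0 members. The members with the smallest unadjusted p are given as a description, and none of them is read as a change. The smallest p belonged to Pcdh20, measured at 1.14, 1.28 and 1.57 FPKM after OGD and 1.56, 1.72 and 1.95 with the proteins, with overlapping libraries (log2 change 0.37 ± 0.14, adjusted p = 0.6727, edgeR). Cdh11, a cadherin of mesenchyme and bone that is also made in brain, was at 14.53, 17.92 and 17.80 FPKM after OGD and 14.90, 14.22 and 15.02 with the proteins (-0.21 ± 0.09, adjusted p = 0.7889, edgeR). Pcdhb12 was at 0.93, 0.91 and 0.97 FPKM after OGD and 1.34, 1.15 and 1.20 with the proteins (0.38 ± 0.16, adjusted p = 0.8205, edgeR), and Pcdh7 had a log2 change of -0.22 ± 0.10 (adjusted p = 0.8693, edgeR).

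The intervals, from the fit that did not pair libraries by replicate number, limit how large a change could have been missed. The 95% interval of the log2 change lay within ±0.5 for 17 of 26 single and 20 of 34 clustered members. For Cdh2 it ran from -0.16 to 0.11, for Pcdh10 from -0.24 to 0.10, for Pcdhgc3 from -0.24 to 0.09 and for Pcdha13 from -0.28 to 0.37. The sparse genes allowed more, as for Cdh23, with an estimate of -0.54 and an interval of -1.20 to 0.12. Libraries of the 2 groups did not overlap for 1 single member, Cdh20, and 3 clustered ones, where 9.57% of all genes had no overlap. Cdh20 was at 26.59, 22.89 and 23.90 FPKM after OGD and 21.40, 22.61 and 21.69 with the proteins (log2 change -0.18 ± 0.08, interval -0.36 to 0.00, adjusted p = 0.9031, edgeR). The cluster sums were not called either: alpha 0.05 (interval -0.26 to 0.36), beta 0.01 (-0.15 to 0.17) and gamma -0.08 (-0.24 to 0.08).

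**Figure D5:**
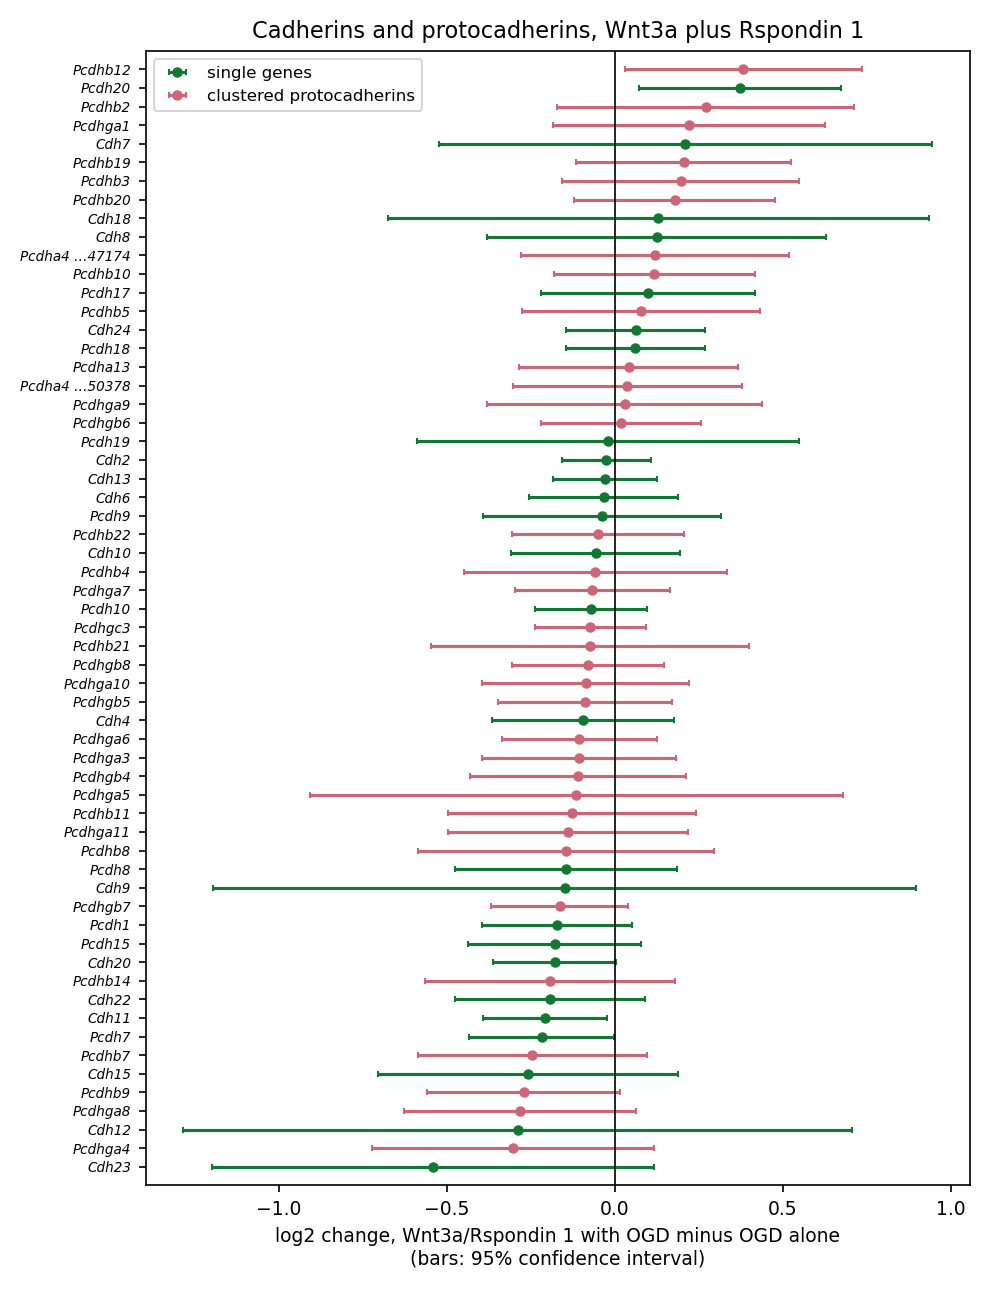
Log2 change from OGD alone to OGD with Wnt3a and Rspondin 1 for all 60 tested members, sorted, with 95% confidence intervals from the edgeR fit and a colour for single genes and clustered rows. Estimates lie between -0.54 and 0.38 and none passed the adjusted threshold; the 2 widest intervals belong to Cdh9 and Cdh12, which were at 0.37 FPKM or less in both groups.

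Set against the untreated controls, the cultures given OGD and both proteins showed 4 single members higher and 19 lower of 26, and 2 clustered rows higher and 22 lower of 34 (edgeR, adjusted p under 0.05; over all genes 36.6% higher and 36% lower). This comparison shares its controls with OGD against control and its treated libraries with the comparison above, so it is given only by its own values. Cdh9 was at 0.09, 0.20 and 0.26 FPKM in these cultures, with a log2 change from control of -4.49 ± 0.34. Cdh12 was at 0.08, 0.08 and 0.14 FPKM, Cdh18 at 0.16, 0.23 and 0.38, Cdh7 at 0.42, 0.43 and 0.58 and Cdh8 at 1.55, 2.38 and 2.91, all far under their controls. Among delta protocadherins Pcdh19 was at 0.80, 1.24 and 1.92 FPKM, Pcdh9 at 5.77, 6.04 and 8.19, Pcdh1 at 7.88, 6.16 and 6.94 and Pcdh10 at 39.24, 37.13 and 39.49. Cdh20 was 1.56 ± 0.09 above control, Pcdh15 0.86 ± 0.12, Cdh24 0.43 ± 0.10 and Cdh2 0.20 ± 0.06. The alpha sum was at 56.13, 71.22 and 79.46 CPM (-2.55 ± 0.15) and the beta sum at 81.56, 88.27 and 85.94 CPM (-0.46 ± 0.07). Pcdha13 was at 9.15, 11.65 and 12.96 FPKM and Pcdhgc3 at 177.13, 154.21 and 176.65, with log2 changes from control of -2.55 ± 0.15 and 0.38 ± 0.08. The gamma sum, at 652.4, 579.1 and 656.8 CPM, was not called (0.15 ± 0.07, adjusted p = 0.07813, edgeR), with replicate 2 the lowest. It was called without that replicate (0.21, adjusted p = 0.02445, edgeR), and without the Pcdhgc3 row it was lower than control (-0.39 ± 0.07). Among the 22 lower rows, the call of Pcdhb9 (adjusted p = 0.04348, edgeR) was lost with library totals and in 5 of 6 fits with a replicate left out. That of Pcdhb5 was lost without replicate 1 given both proteins. Calls were gained in some fits for Pcdhga1, Cdh15, Pcdh12 and Cdh19.

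Genes that work with the cadherins were taken from fixed lists. Of 16 catenins and junction linkers, 6 rose and 5 fell after OGD (edgeR, adjusted p under 0.05), with a median log2 change of -0.05; both counts are near the shares over all genes, 36.3% higher and 36.8% lower. Ctnna1, the alpha-catenin of most tissues, rose from 34.9 ± 0.85 FPKM (SD, n = 3) in control to 105.8 ± 1.96 (log2 change 1.51 ± 0.06), and Nectin1, an adhesion protein that is linked to actin beside cadherins, fell from 43 ± 2.73 to 11.3 ± 0.60 (-2.02 ± 0.08). The neural alpha-catenin Ctnna2 (named after its values were seen) fell from 40.7 ± 0.27 to 13.1 ± 0.48 FPKM (-1.72 ± 0.09), so the 2 alpha-catenins moved in opposite directions. Of 15 tested other genes of the cadherin superfamily, 9 fell and 2 rose, with a median of -0.98. The synaptic calsyntenin Clstn2 fell from 24.2 ± 0.81 to 3.87 ± 0.80 FPKM (-2.75 ± 0.17) and Celsr3, a planar polarity cadherin of axon guidance, from 28.5 ± 1.6 to 8.35 ± 1.28 (-1.86 ± 0.12). The 2 that rose, Celsr1 (2.00 ± 0.13) and Fat1 (1.27 ± 0.10), are named after their values were seen.

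Of 8 genes for proteases that cut cadherins and their subunits, 5 rose and none fell, with a median of 0.44 (over all genes 36.3% rose and 36.8% fell). The sheddase Adam17 rose from 6.96 ± 0.09 FPKM (SD, n = 3) to 22.8 ± 1.8 (log2 change 1.63 ± 0.08) and the membrane metalloprotease Mmp14 from 44.9 ± 2.65 to 135.2 ± 9.58 (1.5 ± 0.08). Of 12 regulators of the clustered locus, 4 rose and 2 fell, neither above the share over all genes. The cohesin genes Smc1a and Stag2 had log2 changes of -0.43 ± 0.09 and 0.50 ± 0.12. Of 11 cytoplasmic partners of protocadherins, 4 rose and 4 fell, which is near those shares. The kinase gene Ptk2b, whose product binds clustered protocadherin tails, fell from 40.4 ± 2.36 to 3.89 ± 0.96 FPKM (-3.46 ± 0.15), and Wasf1, an actin regulator of the WAVE complex that delta-2 protocadherins recruit, from 67.7 ± 2.56 to 28.3 ± 1.44 (-1.35 ± 0.07). With Wnt3a and Rspondin 1 against OGD alone, 0 of the 62 tested genes of these 5 lists were called by edgeR, beside 0.197% of all genes. DESeq2 called 1, Fjx1, a Golgi kinase gene related to the regulator of Fat and Dachsous cadherins. Fjx1 was at 56.3 ± 6.04 FPKM after OGD and 78.7 ± 4.2 with the proteins (SD, n = 3, log2 change 0.46 ± 0.09, adjusted p = 0.06575 by edgeR).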

How the data were processed

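RNA sequencing libraries (TruSeq RNA kit, 1 µg of total RNA, per the labels' protocols) were analysed from the authors' tables. The deposited count columns hold whole reads per gene and the FPKM columns the same scaled by length and depth, per the file headers. The log2 fold and p-value or FDR columns are the authors' own, per the file headers, by a test not given in the sources used here; in the authors' deposited table for OGD, 8 of the 69 members had an FDR under 0.05 and a higher value, 39 a lower one, and in that for Wnt3a with Rspondin 1 none did. Bowtie 0.12.2, mm9 and mm8 (both mouse) stand in the submitters' processing notes, but the genes are rat Ensembl genes. The rat build, aligner, counter and use of strand are not given in the sources used here. Reads of overlapping genes cannot be told apart.

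Counts were fitted with edgeR 4.0.16 in R 4.3.3 (filterByExpr with a minimum count of 10, TMM scaling, robust quasi-likelihood fit of 3 group means over all 9 libraries), with Benjamini-Hochberg adjustment over 13693 genes and a threshold of 0.05. A prior count of 0.125 entered the log2 changes, and SE come from the F statistic. Cluster sums were tested in a second fit of the same kind, where they replaced the single clustered rows, with adjustment over 13662 features. Sums without their largest row came from a further fit. FPKM values are as deposited. The filter kept 60 of the 69 members. TMM factors were 0.943 to 0.968 in controls and 1.002 to 1.033 elsewhere. The script was tested on simulated data. Alternatives were RLE factors, library totals, DESeq2 1.42.0, no filter, 2 groups only, a replicate block and each replicate left out. Values in every control and OGD library are given for the 6 highest single members and the 5 largest falls at 1 FPKM or more. Fewer than 5 rises met that rule, and these are given likewise, as are leading clustered rows and further members described by role. Members with the 3 smallest p under Wnt3a with Rspondin 1 have values in every library of both groups compared. Other values with the proteins are given for some members only. Of each pathway list the 2 genes with the smallest adjusted p are named. Genes with a pattern like that of Cdh2 are not reported here. Members and lists were chosen with earlier results of these data known. Ctnna3, Dchs2, Cdhr4, Pecam1, Itgam and Col1a2 matched no row. Promoters were matched by symbol to RefSeq GRCr8 windows (49 found); 64 members matched a RefSeq symbol, used for gene order.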

Additional observations from a re-analysis of the deposited data

How the results depend on the processing

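In OGD against control 47 members were called, and 42 to 47 of these were called under each of the 12 alternatives, none with a changed direction. Calls were gained for Cdh17, Cdh19 and Pcdh12 with no filter (50 called), for Pcdh12 without control replicate 1 or OGD replicate 1, 2 or 3, and for Pcdhb19 without OGD replicate 3. With each replicate left out the calls of single members ran from 4 to 5 higher and 19 to 20 lower, and clustered rows from 2 higher and 18 to 20 lower. Library totals moved the median log2 change of all genes from 0.02 to 0.105 and the split of all calls from 4972 higher and 5040 lower to 5527 and 4592. The cause of the changes below was not tested.

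After OGD the log2 change of the gamma sum was 0.23, while the median over its single rows was -0.41. Without the Pcdhgc3 row, chosen after seeing the data, the sum changed by -0.30. Against control with both proteins the gamma sum was -0.39 without that row, 0.258 with library totals and 0.126 to 0.2086 with a replicate left out. For Wnt3a and Rspondin 1 against OGD, 27 genes were called, 99 by DESeq2, 15 with 2 groups only, and 12 to 49 with a replicate left out (49 without OGD replicate 1, 13 without OGD replicate 2, 12 and 17 without replicates 2 and 3 given the proteins); members called stayed at 0. The alpha sum there ran from -0.0783 to 0.217 and the beta sum from -0.0384 to 0.0606 with a replicate left out, and the beta sum was -0.0075 with RLE factors, -0.0077 by DESeq2 and -0.0103 with no filter. Uncalled rows changed sign: Pcdhb9 after OGD (0.0371 with library totals, -0.0787 to 0.0056 with a replicate left out), Pcdhgb7 (0.0845 with library totals, 0.018 with 2 groups only, -0.0514 to 0.0573 with a replicate left out) and Pcdh10 against control with both proteins (-0.0167 with RLE factors, -0.0164 by DESeq2, -0.0041 with no filter, -0.0063 with 2 groups only, -0.0146 to 0.0595 with a replicate left out).

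Replicate numbers were examined by correlating libraries over genes, on log2 CPM less the mean of the group for each gene. These values compare deviations within groups, not levels. Same-numbered libraries of control and OGD had correlations of 0.273, -0.055 and 0.105, so the numbers were not taken to pair samples. In OGD with and without the proteins the same-numbered correlations were 0.232, 0.073 and 0.267, and each library correlated best with its own number. The main fit, with its SE and intervals, left the replicate number out of this comparison too. With the replicate block 65 genes were called in that comparison and 0 members, and the 47 member calls of the others were the same genes.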
